A study of Homo sapiens with 10 samples.

Results

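Cholesterol synthesis was followed here through 7 genes, HMGCS1, IDI1, FDFT1, SQLE, LSS, DHCR7 and INSIG1, taken by gene symbol from the 57773 rows of the long RNA count tables. All 7 were found as 1 protein coding row each and all 7 passed the filter on low counts. The first 6 encode enzymes of the pathway and INSIG1 a regulator of it, and none of the 7 takes cholesterol up, so genes of uptake are described apart. By their labels the cells were BEAS-2B, an established line of human airway epithelium immortalised with viral genes. One group carried an empty vector (2 libraries) and the other a TAF1C vector (3 libraries). Both groups are labelled as stable lines (the labels name a pCMV6 promoter for the vectors), grown in LHC9 medium with serum and kept in G418 selection medium. The TAF1C protein belongs to the SL1 complex, which RNA polymerase I needs to start transcription of ribosomal RNA genes. The study asked how gene expression differs when TAF1C is overexpressed. Nothing in the labels ties replicates to separate cultures, and p-values therefore measure only how far these samples differ, which may be technical.

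Cells build cholesterol from acetyl-CoA. HMGCS1 makes the precursor of mevalonate, IDI1 converts the first isoprenoid unit into its reactive isomer, FDFT1 joins farnesyl units into squalene, SQLE oxidises squalene, LSS closes the rings to lanosterol, and DHCR7 reduces a late sterol to cholesterol. INSIG1 holds the SCAP and SREBP complex in the endoplasmic reticulum when sterols are plentiful, and it is itself a target of SREBP, the transcription factor that drives most of the pathway.

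Depth was 22809601 and 28476151 counts for the empty vector and 34212883 to 37533366 counts for TAF1C. TAF1C itself was at 64.4 and 77.7 CPM with the empty vector (CPM, counts over the TMM-scaled library size) and at 64.0, 59.0 and 67.0 CPM in the TAF1C-labelled libraries, so the transcript was not higher there (log2 difference -0.17, 95% interval -0.49 to 0.16, edgeR adjusted p = 0.353). With library totals it was lower (-0.38, adjusted p = 0.0316), as without empty vector replicate 1 (-0.36, adjusted p = 0.00133). The libraries are named by their labels, and whether the labels match the lines sequenced was not tested, so each difference printed is one between these labelled libraries. Markers of photoreceptors set the empty vector libraries apart. The 12 genes of that list summed to 2106 and 1909 CPM there and to 6.91 to 10.9 CPM in the libraries labelled TAF1C, with at most 1 of the 12 at 0 in any library, and IMPG2 alone at 869 and 680.1 CPM against 0.529 to 0.990 CPM. Neuronal markers summed to 576 and 472 CPM against 103 to 112 CPM. Of these, MAP2 was at 119 and 44.3 CPM against 93.2 to 102 CPM and did not pass, and the others tested fell. STMN2, GAP43 and DCX were not tested. They were at 36.7, 10.3 and 22.9 CPM in empty vector replicate 1 and at 0, 0.071 and 0.284 CPM in replicate 2. Of 11 airway epithelial markers, 7 were tested, of which the keratins KRT8 (101 and 96.8 CPM against 318 to 348 CPM) and KRT18 rose, EPCAM (14.7 and 1.10 CPM against 0.057 to 0.433 CPM), FOXJ1 and MUC1 fell, and KRT19 and CDH1 (0.355 to 2.97 CPM over all 5 libraries) did not pass. Over 9 mesenchymal markers the sum was 450.1 and 366 CPM with the empty vector and 2711 to 2758 CPM in the libraries labelled TAF1C, with the fibronectin gene FN1 at 242 and 179.9 CPM against 2417 to 2460 CPM. Of these 9, FN1 and VIM rose, THY1 fell (13.2 and 22.1 CPM against 2.18 to 3.82 CPM) and 6 did not pass. Over 8 haematopoietic markers the sum was 53.5 and 38.9 CPM against 32.0 to 36.0 CPM. SERPINA1, a hepatocyte marker, was at 14.4 and 16.1 CPM against 57.0 to 59.8 CPM. These levels lie along the same split as every comparison below, and their part in the results was not tested. In such bulk samples, fewer cells of a type and less RNA per cell cannot be told apart.

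DHCR7 and INSIG1, the members with the largest rise and the largest fall, and LSS, which fell less, are represented here by the 250 bases before a RefSeq start site (build GRCh38.p14, 5′ to 3′ on the gene's strand), with each NF-Y box (CCAAT, either strand) in capitals. NF-Y is a factor known to work with SREBP at sterol genes. The count tables were made on hg19, per the submitters' processing notes, and carry no coordinates. These windows are chr11:71448394-71448643 (minus strand, 1 of 2 start sites listed for DHCR7), chr7:155297628-155297877 (plus strand, INSIG1) and chr21:46228775-46229024 (minus strand, LSS).
DHCR7: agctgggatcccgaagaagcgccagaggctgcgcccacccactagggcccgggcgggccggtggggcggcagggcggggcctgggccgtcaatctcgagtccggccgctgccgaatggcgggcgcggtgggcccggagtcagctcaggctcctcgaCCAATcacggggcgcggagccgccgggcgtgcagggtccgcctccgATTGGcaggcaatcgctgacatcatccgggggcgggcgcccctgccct
INSIG1: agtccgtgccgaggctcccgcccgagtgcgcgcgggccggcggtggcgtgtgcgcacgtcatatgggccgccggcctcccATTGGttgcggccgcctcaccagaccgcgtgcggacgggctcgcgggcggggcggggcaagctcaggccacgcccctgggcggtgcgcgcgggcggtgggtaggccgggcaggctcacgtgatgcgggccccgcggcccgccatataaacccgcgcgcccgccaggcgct
LSS: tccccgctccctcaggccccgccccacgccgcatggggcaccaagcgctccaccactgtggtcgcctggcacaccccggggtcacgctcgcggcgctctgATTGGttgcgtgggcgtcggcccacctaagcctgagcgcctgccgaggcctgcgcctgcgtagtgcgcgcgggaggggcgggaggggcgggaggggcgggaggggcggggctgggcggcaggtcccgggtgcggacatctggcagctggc

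RefSeq promoters were found for 5 of the 7 members, all but SQLE and FDFT1, with 9 start sites in all. Each of the 5 had an NF-Y box before at least 1 start site, and 6 of the 9 windows held one, beside 32.0% of all 35116 windows of that length. The GC box GGGCGG (either strand) was in 8 of the 9 windows and in 42.6% of all windows. The SREBP site TCACNCCAC (either strand) was in 0 of the 9 and in 0.883% of all windows. No NF-Y box overlapped a GC box in these windows. The printed DHCR7 window had its NF-Y boxes beginning 94 and 48 bases before the start, the INSIG1 window 170 bases before it and the LSS window 150 bases before it. The other DHCR7 window held 0. A match of letters is a description and shows no binding.

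The 7 genes did not move as a group. DHCR7 and FDFT1 rose in the libraries labelled TAF1C, INSIG1 and LSS fell, and HMGCS1, SQLE and IDI1 did not pass the test (edgeR quasi-likelihood, Benjamini-Hochberg adjusted p under 0.05). Of all 18402 genes tested, 38.5% passed (15.9% raised and 22.6% lowered), so 4 of 7 is not far from the background. The members' median log2 fold change was 0.03, beside -0.10 for all genes tested. Groups did not overlap for 6 of the 7 members, as for 64.2% of all genes.

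**Figure D1:**
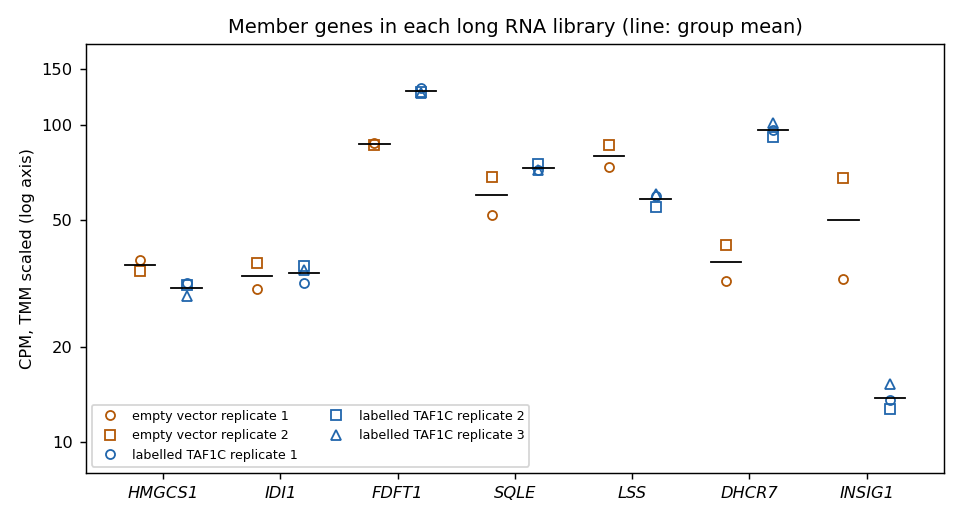
Normalised read count (CPM, TMM scaled, log axis) of each member in each long RNA library, with 2 empty vector libraries in brown, 3 labelled TAF1C in blue and a line at each group mean. DHCR7 and FDFT1 sit higher and LSS and INSIG1 lower in the libraries labelled TAF1C, and the empty vector libraries lie furthest apart for INSIG1.

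DHCR7, whose enzyme takes the last step of one branch to cholesterol, was at 32.1 and 41.7 CPM with the empty vector and 96.7, 91.4 and 101 CPM in the TAF1C-labelled libraries. Every library labelled TAF1C was above both others. The log2 fold change was 1.38 ± 0.15 (SE), 2.61-fold higher (edgeR adjusted p = 0.00196), and 97.0% of the genes tested had a lower log2 fold change. DHCR7 passed under all 14 alternative settings, with log2 fold changes of 1.14 to 1.57 and adjusted p of 1.12e-13 to 0.0188.

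FDFT1, the squalene synthase, was at 88.0 and 86.4 CPM with the empty vector and 130.4, 127 and 126 CPM in the TAF1C-labelled libraries. Within each group these values lay close together. FDFT1 rose by 0.55 ± 0.10 (SE) on the log2 scale, 1.47-fold (edgeR adjusted p = 0.00920). This call was lost under 7 of the 14 alternatives, library totals (0.33, adjusted p = 0.0653) and each omission of a library labelled TAF1C (0.0525 to 0.0674) among them, with adjusted p of 5.30e-06 to 0.126 over all 14 and the direction kept in each.

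SQLE, a rate-limiting enzyme downstream of squalene, was at 52.0 and 68.5 CPM with the empty vector and 71.9, 75.4 and 72.0 CPM in the TAF1C-labelled libraries. The groups did not overlap, but the higher empty vector library came close to the lowest library labelled TAF1C. SQLE had a log2 difference of 0.28 ± 0.15 (SE), with a 95% interval from -0.08 to 0.64 (edgeR adjusted p = 0.181). Leaving out empty vector replicate 2 gave 0.46 (adjusted p = 8.46e-05), and leaving out replicate 1 gave 0.03 (adjusted p = 0.807).

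LSS, the lanosterol synthase, was at 73.7 and 86.2 CPM with the empty vector and 59.8, 55.1 and 60.6 CPM in the TAF1C-labelled libraries. All 3 of the latter were below both of the former. LSS fell by 0.45 ± 0.12 (SE) on the log2 scale, to 0.732 of its empty vector level (edgeR adjusted p = 0.0318). The call was lost under 7 of the 14 alternatives, DESeq2 (-0.26, adjusted p = 0.662) and each omission of a library labelled TAF1C (0.115 to 0.127) among them, with adjusted p of 5.97e-07 to 0.662 over all 14 and a value below 0 in each.

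HMGCS1, the cytosolic HMG-CoA synthase, was at 37.6 and 34.6 CPM with the empty vector and 31.8, 31.4 and 28.8 CPM in the TAF1C-labelled libraries. Here too the groups did not overlap, at a small distance. HMGCS1 had a log2 difference of -0.24 ± 0.12 (SE), with a 95% interval from -0.54 to 0.07 (edgeR adjusted p = 0.180). It passed when empty vector replicate 2 was left out (-0.33, adjusted p = 0.00809).

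IDI1, the isopentenyl diphosphate isomerase, was at 30.3 and 36.6 CPM with the empty vector and 31.8, 35.9 and 34.9 CPM in the TAF1C-labelled libraries. These ranges overlapped. The log2 difference was 0.03 ± 0.14 (SE), with a 95% interval from -0.32 to 0.38 (edgeR adjusted p = 0.875), and its sign turned under 6 of the 14 alternatives. Its near relative IDI2 had 6 to 17 counts per library.

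INSIG1 was at 32.7 and 67.8 CPM with the empty vector and 13.6, 12.7 and 15.2 CPM in the TAF1C-labelled libraries. The empty vector libraries differed 2.08-fold from each other, more than for any other member, and both were above every library labelled TAF1C. INSIG1 fell by 1.86 ± 0.31 (SE) on the log2 scale, 3.64-fold lower (edgeR adjusted p = 0.00747). It fell by 2.36 without empty vector replicate 1 and by 1.27 without replicate 2, and the call was lost without TAF1C replicate 2 (-1.80, adjusted p = 0.0503), with adjusted p of 1.32e-17 to 0.0503 over all 14 alternatives.

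**Figure D2:**
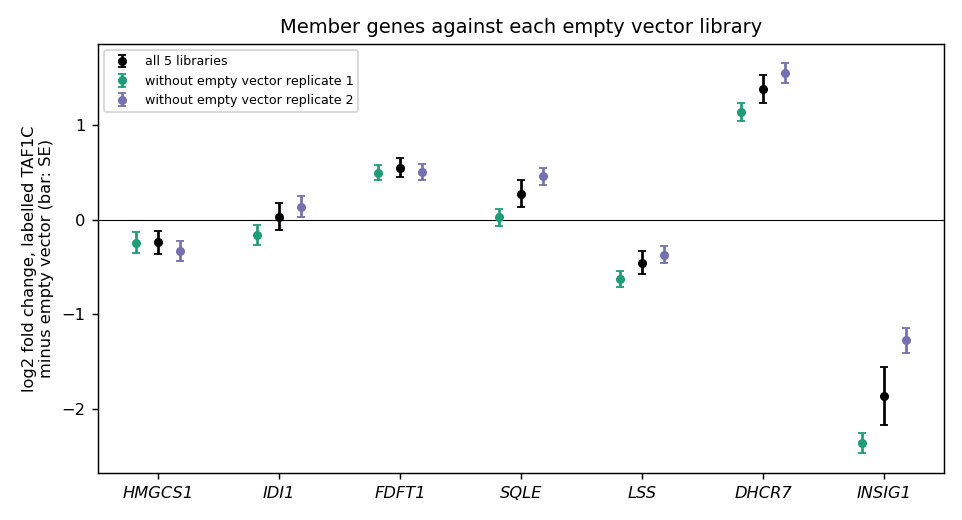
Log2 fold change (labelled TAF1C minus empty vector, bars SE) of each member with all 5 libraries, without empty vector replicate 1 and without replicate 2. INSIG1 moves from -2.36 to -1.27 and IDI1 from -0.16 to 0.14 between the controls, while FDFT1 stays at 0.50 and 0.51.

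Ratios of raw counts within a library do not depend on the scaling. These pairs were chosen after their values were seen, each with 1 raised and 1 lowered gene, so they are a description only. The count of INSIG1 over that of DHCR7 was 1.02 and 1.63 with the empty vector and 0.140, 0.139 and 0.1505 in the libraries labelled TAF1C. FDFT1 over LSS was 1.19 and 1.003 against 2.18, 2.31 and 2.09, and DHCR7 over LSS was 0.436 and 0.484 against 1.62, 1.66 and 1.67. Summed over the 7 members, the share of all counts was 0.0409% and 0.0417% with the empty vector and 0.0407%, 0.0400% and 0.0415% in the libraries labelled TAF1C, where the ranges overlapped. On the TMM scale the same sum was 346 and 422 CPM against 436, 429 and 439 CPM, without overlap. The share without INSIG1 was 0.0370% and 0.0350% against 0.0395%, 0.0388% and 0.0401%, also without overlap. Leaving out INSIG1 was not planned and took away the member that fell most. The summed CPM of the 15 other synthesis enzymes overlapped, at 655 and 950 CPM against 868, 891 and 892 CPM.

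Other enzymes of cholesterol synthesis moved in both directions (rises and falls of the genes that follow are on the log2 scale unless given as folds). Of 15 tested, 3 rose, 3 fell and 9 did not pass (40.0% called, beside 38.5% of all genes), with a median log2 fold change of 0.02. EBP, a sterol isomerase, was at 38.0 and 55.2 CPM with the empty vector and 79.7, 79.3 and 85.2 CPM in the TAF1C-labelled libraries, a rise of 0.80 ± 0.18 (SE) (edgeR adjusted p = 0.0188). MSMO1, which removes methyl groups from sterols, rose by 0.57 ± 0.13 (SE), and MVD, the mevalonate diphosphate decarboxylase, by 0.57 ± 0.16 (SE). HSD17B7, a sterol ketone reductase, was at 14.1 and 19.8 CPM against 6.16, 8.15 and 8.78 CPM, or -1.14 ± 0.26 (SE) as a log2 fold change (adjusted p = 0.0192 in edgeR). MVK, the mevalonate kinase, fell by 0.97 ± 0.23 (SE) on that scale, and LBR, a nuclear envelope protein that is also a sterol reductase, had a value of -0.66 ± 0.14 (SE). With the 6 member enzymes, 5 of 21 rose and 4 fell, and raised and lowered steps were interspersed along the pathway. These counts depend on the libraries: without empty vector replicate 2, 7 of the 15 rose and 5 fell, and without replicate 1, 6 fell. Without TAF1C replicate 1, 2 or 3, 0 rose and 0 fell in edgeR, where 2 to 3 were raised and 3 to 4 lowered at an unadjusted p under 0.05, and DESeq2 on all 5 libraries also gave 0 and 0 (3 and 2 unadjusted).

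**Figure D3:**
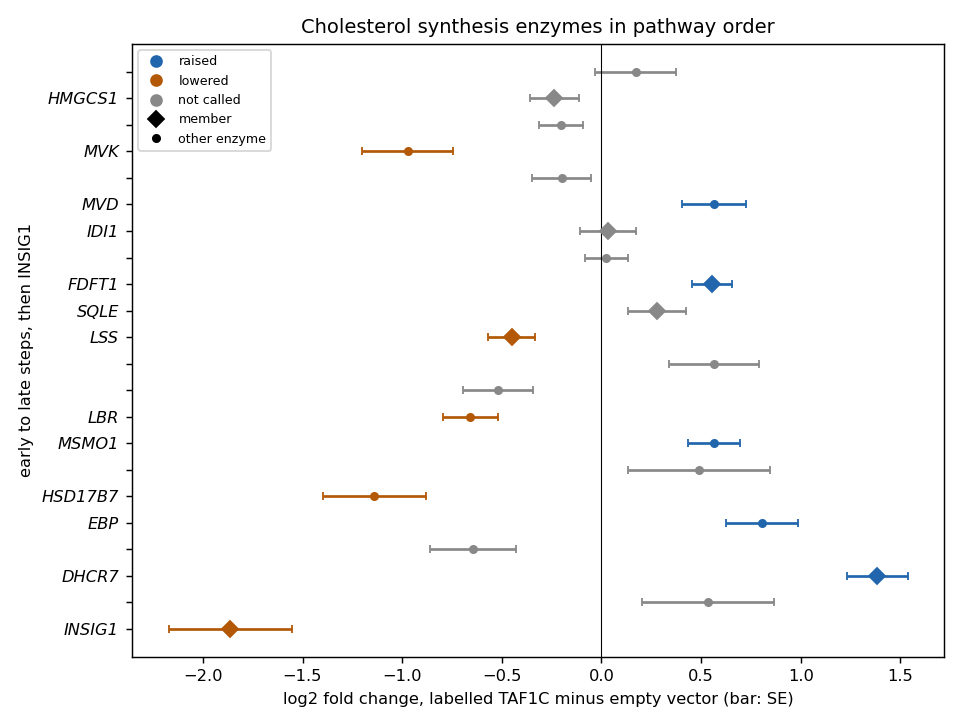
Log2 fold change (labelled TAF1C minus empty vector, bars SE) of 21 cholesterol synthesis enzymes from early to late steps, then INSIG1, with diamonds for members and names for members and genes past the test. Raised genes (blue) and lowered genes (brown) are interspersed from MVK at -0.97 and MVD at 0.57 down to DHCR7 at 1.38.

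Among 12 genes that control SREBP or degrade the reductase of the pathway, 4 rose and 0 fell in edgeR (33.3% called, beside 38.5% of all genes). SCAP, the escort of SREBP and the partner of INSIG1, was at 113 and 122 CPM with the empty vector and 165, 148 and 166 CPM in the TAF1C-labelled libraries, a rise of 0.45 ± 0.12 (SE) (edgeR adjusted p = 0.0293). ERLIN2 rose by 0.54 ± 0.12 (SE), RNF145 by 0.41 ± 0.10 (SE) and RNF139 by 0.65 ± 0.17 (SE), all of them proteins of the endoplasmic reticulum that act in the turnover of sterol regulators. No gene of this list was lower at an unadjusted p under 0.05 either, and DESeq2 gave 0 raised and 0 lowered (5 and 0 unadjusted). With library totals 1 rose and 1 fell (2 and 2 unadjusted), and with the 5 CPM filter 4 rose and 0 fell (4 and 1 unadjusted). With no filter 0 rose and 0 fell in edgeR (4 and 0 unadjusted), and likewise with the replicate block (1 and 0 unadjusted). Against either empty vector library alone, genes of this list passed in both directions. Without any 1 of the libraries labelled TAF1C 0 passed in edgeR (3 or 4 raised and 0 lowered unadjusted). SREBF2, which encodes the SREBP of cholesterol synthesis and is named outside the rule, after its values were seen, was at 259 and 169 CPM with the empty vector and 176, 169 and 170 CPM in the TAF1C-labelled libraries. The SREBF2 groups overlapped (edgeR adjusted p = 0.241, log2 difference -0.32, 95% interval -0.80 to 0.16). Against empty vector replicate 1 alone it passed (-0.63, adjusted p = 1.61e-08), and against replicate 2 alone its difference was -0.04.

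Genes of uptake and lysosomal release gave 2 raised and 2 lowered of 12 (33.3% called, beside 38.5% of all genes). SCARB1, a lipoprotein receptor, rose by 0.76 ± 0.12 (SE) (edgeR adjusted p = 0.00687), from 34.3 and 37.6 CPM to 62.1, 56.2 and 64.8 CPM. NPC2, which carries cholesterol out of lysosomes, rose by 0.69 ± 0.18 (SE). MYLIP, the ligase that degrades lipoprotein receptors and a target of LXR, had a log2 fold change of -1.18 ± 0.25 (SE). VLDLR, another lipoprotein receptor, was at 33.6 and 6.58 CPM against 2.77, 2.15 and 2.41 CPM (-3.04 ± 0.65 (SE), edgeR adjusted p = 0.0165). Against empty vector replicate 2 alone its log2 fold change was -1.49, and against replicate 1 alone -3.81.

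LXR is the nuclear receptor that answers to oxysterols and drives cholesterol export. Of 6 genes of LXR and efflux, 2 rose, 3 fell and 1 did not pass (83.3% called, beside 38.5% of all genes, of which 15.9% rose and 22.6% fell). ABCG1, an exporter, was at 24.9 and 12.8 CPM with the empty vector and 3.11, 2.41 and 3.37 CPM in the TAF1C-labelled libraries, or -2.67 ± 0.35 (SE) as a log2 fold change (adjusted p = 0.00344 in edgeR). ABCA1, the exporter to lipid-poor particles, was at 114 and 33.6 CPM against 17.1, 15.4 and 17.1 CPM (-2.16 ± 0.47 (SE), adjusted p = 0.0176 in edgeR). APOE, a lipoprotein component, was at 96.2 and 37.4 CPM against 24.5, 21.2 and 25.9 CPM (-1.48 ± 0.38 (SE), adjusted p = 0.0282 in edgeR). For ABCA1 and APOE the fall depended on the control: against empty vector replicate 2 alone it was -1.09 and -0.71, and against replicate 1 alone -2.82 and -2.04. The calls of VLDLR, ABCA1 and APOE were lost without any 1 of the libraries labelled TAF1C (adjusted p of 0.0643 to 0.117 in edgeR). NR1H2, which encodes an LXR itself, rose by 0.86 ± 0.15 (SE), and NR1H3, which encodes the other, by 0.66 ± 0.18 (SE).

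Branches that leave the pathway at its isoprenoid stage gave 2 raised and 2 lowered of 9 (44.4% called, beside 38.5% of all genes). DHDDS, a subunit of the enzyme that makes dolichol, was at 94.4 and 101.7 CPM with the empty vector and 42.1, 40.7 and 41.2 CPM in the TAF1C-labelled libraries, 2.37-fold lower (log2 fold change -1.25 ± 0.10 (SE), edgeR adjusted p = 0.000806), and COQ2, of coenzyme Q synthesis, rose by 0.80 ± 0.12 (SE). PDSS2, of the same synthesis, rose by 0.60 ± 0.17 (SE), and FNTB, a farnesyltransferase subunit, had a log2 fold change of -0.77 ± 0.22 (SE).

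Fatty acid synthesis, which the related factor SREBP-1 drives, gave 2 raised and 3 lowered of 10 (50% called, beside 38.5% of all genes). FADS2, a desaturase, was at 127 and 164 CPM against 30.1, 28.1 and 24.9 CPM, 5.26-fold lower (edgeR adjusted p = 0.000450). LPIN1, a phosphatidate phosphatase, was at 40.5 and 59.7 CPM against 11.2, 9.68 and 9.52 CPM, 4.94-fold lower (edgeR adjusted p = 0.00109). ELOVL6, an elongase, rose by 1.02 ± 0.13 (SE) and GPAM, which starts glycerolipid synthesis, by 0.78 ± 0.13 (SE). Of 7 tested genes of cholesterol esters and oxysterols, 28.6% were called, beside 38.5% of all genes: NCEH1, an ester hydrolase, rose by 0.50 ± 0.15 (SE) and CYP7B1, an oxysterol hydroxylase, had a value of -2.76 ± 0.56 (SE). Among the called genes named in these 7 related lists, FADS2, LPIN1, ELOVL6, ABCG1, DHDDS and COQ2 passed under all 14 alternatives, and every other one lost its call under at least 1. PDSS2 and NCEH1 lost it under 10, MVD under 8, and MSMO1, ERLIN2, RNF145, SCAP, FNTB and NR1H3 under 7.

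**Figure D4:**
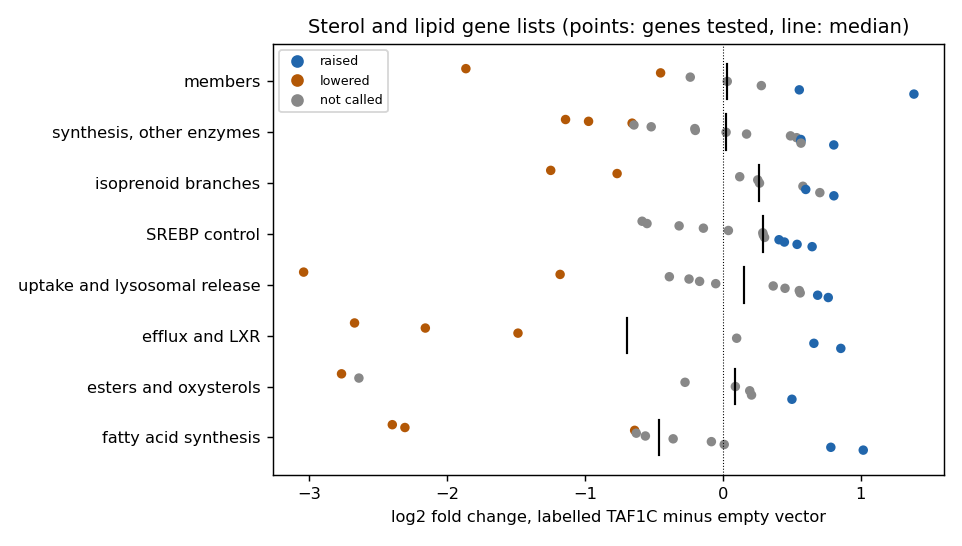
Log2 fold change (labelled TAF1C minus empty vector) of each tested gene in the member set and the 7 related lists, with a line at each list's median. Raised (blue) and lowered (brown) genes occur together in every list except SREBP control, which has 4 raised and 0 lowered genes, and the medians run from -0.69 for efflux and LXR to 0.29 for SREBP control.

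The median pattern of the members over the 5 libraries was nearly flat and most like that of IDI1, at a Euclidean distance of 0.06 on the log2(CPM + 0.5) scale after centring, whereas DHCR7 lay 1.45 and INSIG1 2.07 away from it. The pattern was made from the members themselves, so nearness of a middle member to it follows from the definition. Of 12032 unlisted genes, POT1, KDM3B, GOSR1, COQ7 and BLOC1S6 were nearest to the pattern, at 0.03 to 0.05, beside a median distance of 0.73. In the small RNA tables, miR-33b-5p, which lies in an intron of SREBF1, was at a scaled signal of 318 and 357 with the empty vector and 411 and 393 in 2 libraries labelled TAF1C, and was listed at 0 in the other. A 0 can be a failed estimate in these tables, where 119 to 203 of 612 miRNAs are listed at 0, so no difference was tested. A search by name for the other form, miR-33a, returned no entry, so it was not analysed here.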

How the data were processed

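By their labels, long and small RNA of BEAS-2B lines had been sequenced. Per the labels' protocols the long RNA libraries were ribosomal RNA depleted. Per the submitters' processing notes the build was hg19, and the tools named are DESeq2, Cufflinks 2.2.1, HISAT2, Bowtie2 2.2.4 and Trimmomatic 0.36. The role of each tool, the annotation and the use of strand are not given in the sources used here. Each deposited table of long RNA gives unnormalised counts by Ensembl gene, and the deposited miRNA tables hold a signal that the authors had scaled in a way not stated. Rows of 1 symbol were summed (55771 symbols). The main test was edgeR 4.0.16 (glmQLFit and glmQLFTest, R 4.3.3) with TMM scaling and no covariate, two-sided. Genes needed 1 CPM or more in 2 or more libraries, and p were adjusted over all 18402 genes by Benjamini-Hochberg. Intervals are 95%. The code was tested on simulated data with the same spread set for all libraries. That setting lacks the wider empty vector spread given next, so it shows no error rates for it. Replicate libraries differed by more than counting noise. The chi-square per degree of freedom was 155 for the empty vector pair and 4.84 to 8.69 for the pairs labelled TAF1C. The SD of log2 differences between libraries was 1.08 for the former and 0.383 to 0.416 for the latter. The 14 alternatives were 3 scalings, DESeq2 1.42.0, no filter, a 5 CPM filter, coding genes only, rows kept apart, a replicate block and the omission of each library. DESeq2 was run without the filter on low counts (50359 genes), so the tool and the filter changed together there. Genes named from a list were its members past the test, at most 4 with values, the members themselves, and the 5 nearest patterns. MVD, MVK, NR1H3, SREBF2, marker genes other than IMPG2, KRT8, FN1 and SERPINA1, and the count ratios were named outside that rule, after their values were seen. One item that the rule names is not reported here. The members and lists were chosen with earlier results of these data known. Exon lengths were not used here, so levels of different genes are not compared. Promoters came from RefSeq (GRCh38.p14).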

Additional observations from a re-analysis of the deposited data

How the results depend on the processing

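Over the 14 alternatives the directions of DHCR7, FDFT1, SQLE, LSS, HMGCS1 and INSIG1 did not change. IDI1 turned to -0.18 with library totals, -0.030 with the upper quartile, -0.078 with the 5 CPM filter, -0.040 with coding genes only, -0.16 without empty vector replicate 1 and -0.0019 without TAF1C replicate 2, and TAF1C turned to 0.023 with DESeq2 (adjusted p = 0.974) and was called lower with library totals (-0.38) and without empty vector replicate 1 (-0.36). The cause was not tested. Members raised and lowered numbered 2 and 1 with DESeq2 size factors in edgeR, 1 and 2 with library totals, and 1 and 1 with DESeq2, with no filter and with the replicate block. Over the omissions of 1 library they ran from 1 to 3 and from 0 to 3, and the 0 (edgeR, without TAF1C replicate 2) had 2 lowered at an unadjusted p under 0.05. The other synthesis enzymes raised and lowered numbered 1 and 6 with library totals, 0 and 0 with DESeq2, 1 and 1 with no filter and 1 and 0 with the replicate block (edgeR, 1 and 3 unadjusted). Lowered ones were 5 with the upper quartile and with coding genes only, and 6 with the 5 CPM filter. Over the omissions they ran from 0 to 7 and from 0 to 6. All genes raised and lowered numbered 2922 and 4158, 1817 raised with no filter, 1425 and 2662 with the replicate block, and 1058 to 5967 and 1960 to 5665 over the omissions. The raised share of calls was 41.3%, 31.1% with library totals and 29.7% with no filter, and the median of all genes moved from -0.10 to -0.33 with library totals. The numbers of same-numbered libraries did not establish pairs (correlations of deviations of 0.04 and 0.14 over 18402 genes, 2 pairs). With 1 empty vector library left, the spread comes from the libraries labelled TAF1C, and the lone library is assumed to vary like them. The alternatives planned for miR-33b were not run, since it was not tested. Members had at least 431 counts in every library, which bounds their counting error.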
